A study of Mus musculus with 24 samples.

Results

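Left ventricles of female mice after the withdrawal of metabolo-hypertensive stress (MHS_RR, reverse remodeling, day 56) were compared directly with left ventricles of female mice at the end of that stress (MHS, day 28). MHS combined angiotensin II (AngII) with a high-fat diet (HFD). All mice were C57Bl6/J, and RNA came from the free wall of the left ventricle (LV). Each group had 3 libraries, so 6 of the 24 libraries of the series entered the comparison. The genes were those with a level of at least 1 TPM (transcripts as a share of the library) in at least 3 of these 6 libraries, 12482 of the 24972 genes in the table. Further groups of 3 were untreated control females at day 28 and day 56 and the corresponding 4 groups of males. The labels give no age, do not say whether a library is 1 mouse or a pool, and do not describe how the stress was ended. The replicates are therefore separate samples whose spread may be partly technical. In the labels, the titles and group tags were in accord, but the time and treatment tags of the MHS day 28 females read as untreated day 56 mice and those of the day 56 controls as treated day 28 mice. The tags of the MHS_RR females give day 56 and AngII with HFD. Groups were taken from the titles. MHS_RR mice were also 28 days further into the experiment than MHS mice, so the end of the stress and the passage of time cannot be told apart within this comparison, and control females of both days are given beside it.

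AngII constricts vessels and acts on the heart through its type 1 receptor. Under pressure overload cardiomyocytes enlarge and re-express genes of the fetal heart, while fibroblasts lay down collagen and the proteins that organise it. Reverse remodeling is the regression of these changes once the load is removed. In RNA from whole tissue, fewer cells of a type and less RNA per cell cannot be told apart.

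Between 12265 and 12585 genes reached 1 TPM in the 6 libraries, and sequencing depth is unknown because TPM carry no read counts. The 3 MHS_RR libraries lay on the positive side and the 3 MHS libraries on the negative side of the leading principal component, which held 50.9% of the variance of the 6. Ventricular markers summed to between 84650 and 106200 TPM, and the atrial marker Bmp10 was below 1 TPM in all 6. Several libraries stood apart. MHS replicate 2 had the highest Postn and 3342 TPM of the atrial natriuretic peptide gene Nppa, and MHS replicate 3 had 125 TPM of the atrial light chain Myl7 with Bmp10 at 0 TPM. A low Bmp10 therefore cannot decide whether atrial tissue was present. In MHS_RR replicate 3 the Y-linked genes stood at 26.1% of the male mean and Xist at 17.3 TPM, below the other female libraries, whose Y-linked genes were at most at 1.74%. In MHS_RR 4.57, 19.0 and 13.3% of the variance of the deviations from the mean library followed GC content and length of the transcripts. In MHS the shares were 1.63, 1.61 and 8.47%, lower for the most part but with overlapping ranges. The part of these in the results was not tested beyond leaving each library out and correcting for GC content and length.

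Many more genes were lower than higher after withdrawal. Of the 12482 genes, 1484 (11.9%) were called by limma at an adjusted p under 0.05, of which 1255 (10.1%) were lower and 229 (1.83%) were higher in MHS_RR. The counts of list members below are to be read against these shares. At least a 2-fold difference was found for 87 lower (0.697%) and 10 higher genes (0.0801%). In 32.6% of the genes the TPM ranges of the groups did not overlap, with MHS_RR below MHS in 25.8% and above it in 6.83%. The median of all genes was -0.09 on the log2 scale, which shifts the split. After median-of-ratios scaling the median was 0.00, with 639 lower and 459 higher genes. Quantile normalization gave 577 lower and 527 higher genes, and correction for GC content and length gave 649 lower and 699 higher. Differences below are on the log2(TPM + 1) scale, with TPM as deposited, and are to be read against this median. The count was 718 without MHS replicate 2, 963 without MHS replicate 3, 686 without MHS_RR replicate 2 and 797 without MHS_RR replicate 3.

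**Figure D1:**
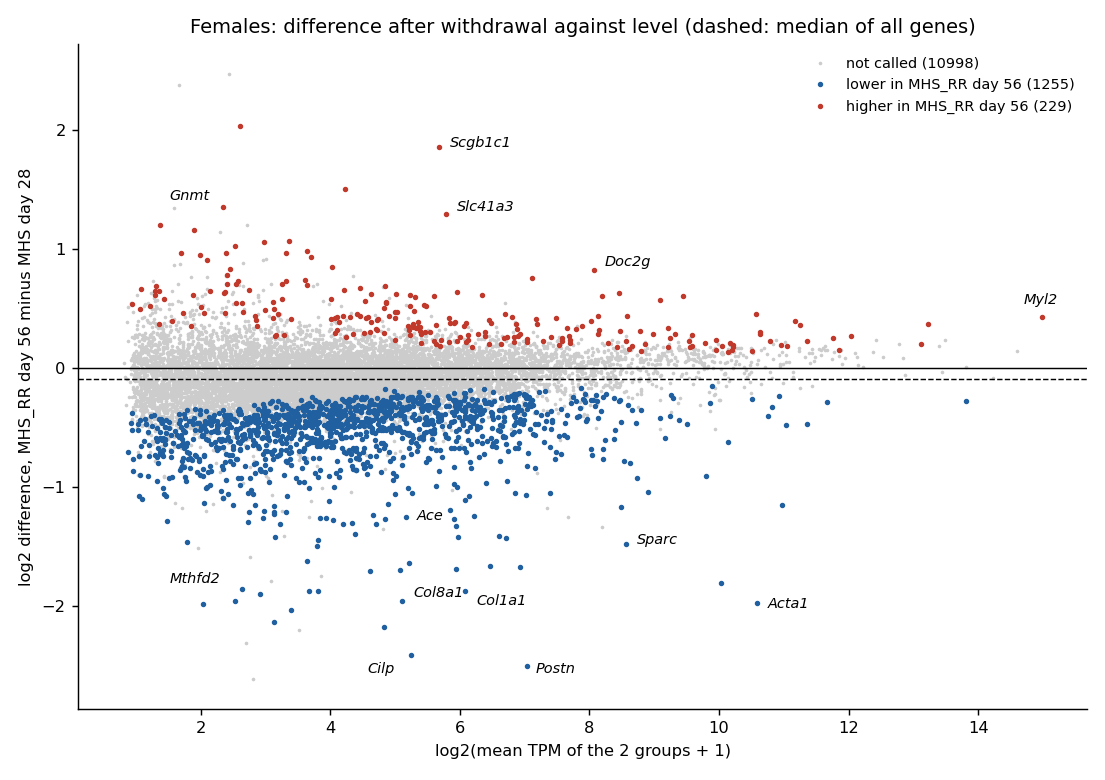
Log2 difference of MHS_RR day 56 minus MHS day 28 in females against log2(mean TPM + 1), 1 point per gene, with 1255 lower genes in blue, 229 higher genes in red and the median of all genes, -0.09, as a dashed line. Lower genes reach -2.50 for Postn at a high level, and the higher genes of high level, such as Myl2 at 0.43, moved little.

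The lowest genes were matrix and wall-stress genes. Postn, periostin, a matricellular protein of activated fibroblasts, was at 68.5, 545 and 89.0 TPM in MHS and at 25.1, 27.6 and 24.4 TPM in MHS_RR. Every MHS library lay above every MHS_RR library, and MHS replicate 2 lay far above the rest. The log2 difference was -2.50 ± 0.47 (SE, n = 3 per group, limma adjusted p = 0.0019). Cilp, which encodes a cartilage intermediate layer protein of stressed heart matrix, was at 24.3, 103 and 64.7 TPM in MHS and at 12.4, 10.4 and 6.58 TPM in MHS_RR (-2.40 ± 0.41, adjusted p = 0.000887). The thrombospondin gene Thbs1 was at 7.55, 20.7 and 19.9 and then at 3.33, 2.33 and 2.92 TPM (-2.03 ± 0.37, adjusted p = 0.00155). Groups did not overlap in any of these, which the rule for naming them required. Lox, the lysyl oxidase that crosslinks collagen, was at 3.46, 27.9 and 3.70 and at 1.67, 1.07 and 1.14 TPM (-1.89 ± 0.45, adjusted p = 0.00886). Its high mean rests on MHS replicate 2, and it was not called in a fit to the 6 libraries alone (adjusted p = 0.0694, the highest of its alternatives, which started at 0.00205).

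**Figure D2:**
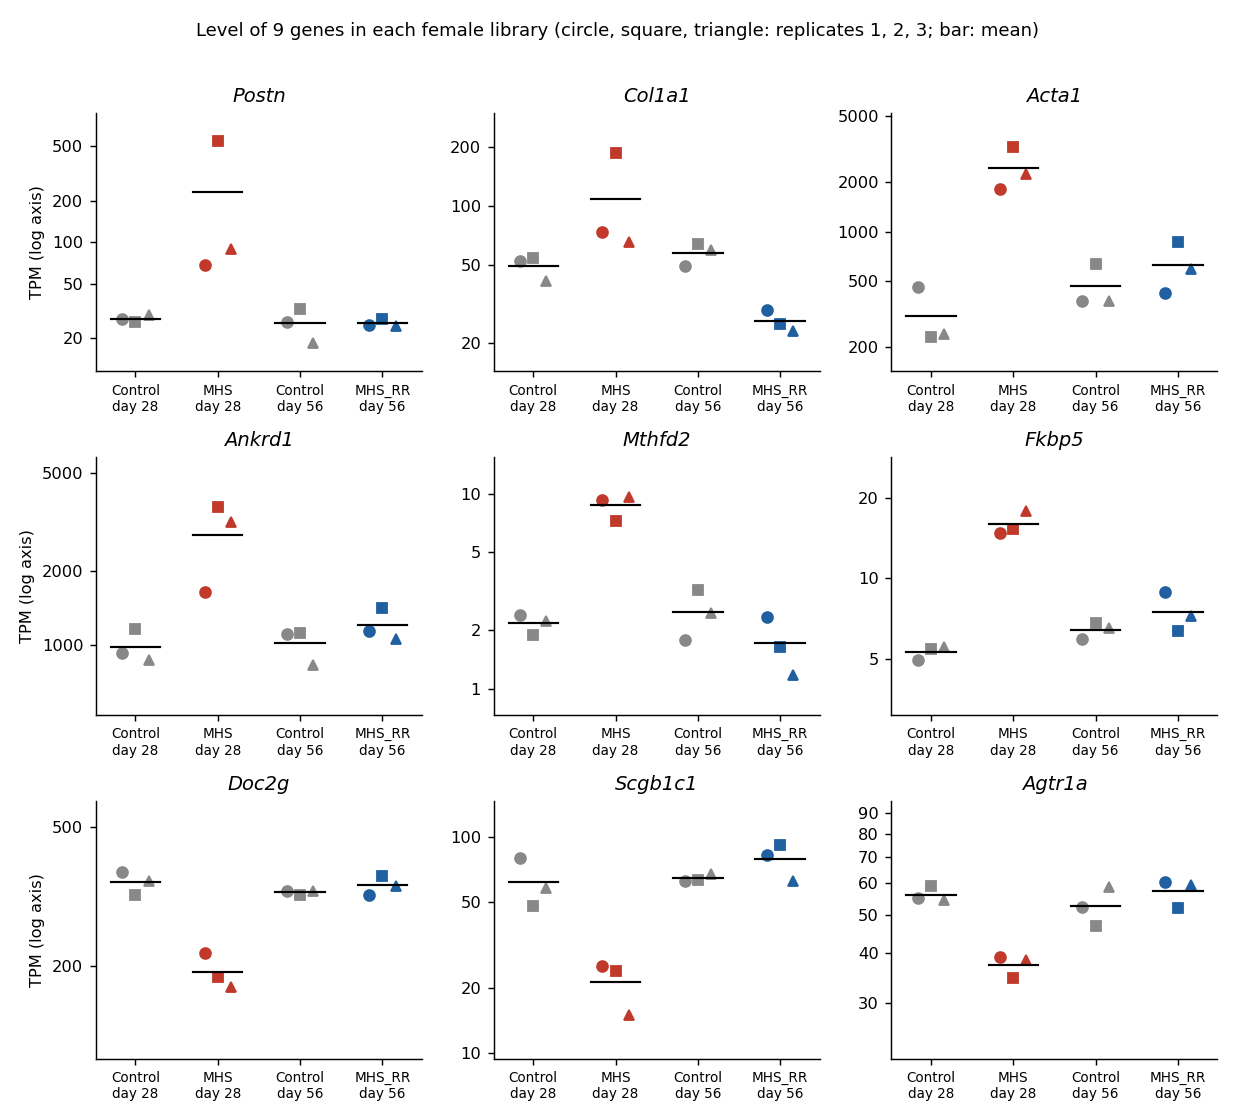
TPM of 9 genes in each female library on log axes, with replicates as circles, squares and triangles and group means as bars. In 6 panels MHS day 28 (red) is the highest group, in Doc2g, Scgb1c1 and Agtr1a it is the lowest, and for Col1a1 the MHS_RR libraries (blue, 29.4, 25 and 22.9 TPM) lie below all controls (grey).

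Most collagen genes fell after withdrawal. Of 19 listed genes 16 were tested, and 14 were lower and 0 higher, with a median of -1.20 against -0.09 over all genes. Between 13 and 15 members were lower when each of the 6 libraries was left out. Col1a1, a chain of the main fibrillar collagen, was at 73.5, 185 and 65.6 TPM in MHS and at 29.4, 25 and 22.9 TPM in MHS_RR (-1.87 ± 0.25, adjusted p = 0.000127). Col3a1, the other main fibrillar collagen of the ventricle, was at 135, 348 and 89.8 and at 50.3, 52.7 and 47.2 TPM (-1.67 ± 0.28, adjusted p = 0.000687). MHS_RR libraries lay below all MHS libraries for both genes. Col8a1, a short-chain collagen, had a log2 difference of -1.95 ± 0.24 (adjusted p = 5.14e-05), and Col5a2, a minor chain of fibrils, -1.70 ± 0.24 (adjusted p = 0.000176). Col15a1, a collagen of basement membranes, was at 82.5, 105 and 72.2 TPM in MHS and 38.2, 33.4 and 29.6 TPM in MHS_RR (-1.33 ± 0.13, adjusted p = 9.53e-06). Col6a2 and Col6a1, chains of the beaded filaments that surround cells, had log2 differences of -1.11 ± 0.11 and -1.0 ± 0.12.

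After withdrawal most collagen genes also lay below the control females of the same day, a comparison added after the values were seen. There 662 of all genes were called (5.30%), 589 lower (4.72%) and 73 higher (0.585%). GC and length correction left 150 lower and 149 higher genes, median-of-ratios scaling 181 and 111, and quantile normalization 178 and 76. The count was 90 without MHS_RR replicate 2, 130 without control replicate 3, 159 without control replicate 2 and 242 without MHS_RR replicate 3. Of the 16 collagen genes 10 were lower than in day 56 controls and 0 were higher, with a median of -0.84 against -0.09 over all genes. The count of collagen genes was between 8 and 10 over 6 fits that each left out a library. Col1a1 in day 56 controls was at 49.3, 63.5 and 59.6 TPM, and the difference of MHS_RR from them was -1.13 ± 0.25 (adjusted p = 0.0169). This call was held in 12 of 17 alternatives, with adjusted p from 0.00191 to 0.0858, the highest without MHS_RR replicate 2. Col3a1 in day 56 controls was at 118, 163 and 129 TPM (-1.42 ± 0.28, adjusted p = 0.00847). Col15a1 was at 83.0, 79.6 and 79.8 TPM in day 56 controls (-1.24 ± 0.13, adjusted p = 6.6e-05) and was called in all 17 alternatives. In contrast Col8a1 was at 13.2, 15.6 and 10.7 TPM in day 56 controls, which overlaps the 12.7, 13.2 and 11.7 TPM of MHS_RR, and was not called (-0.05 ± 0.24, adjusted p = 0.937).

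**Figure D3:**
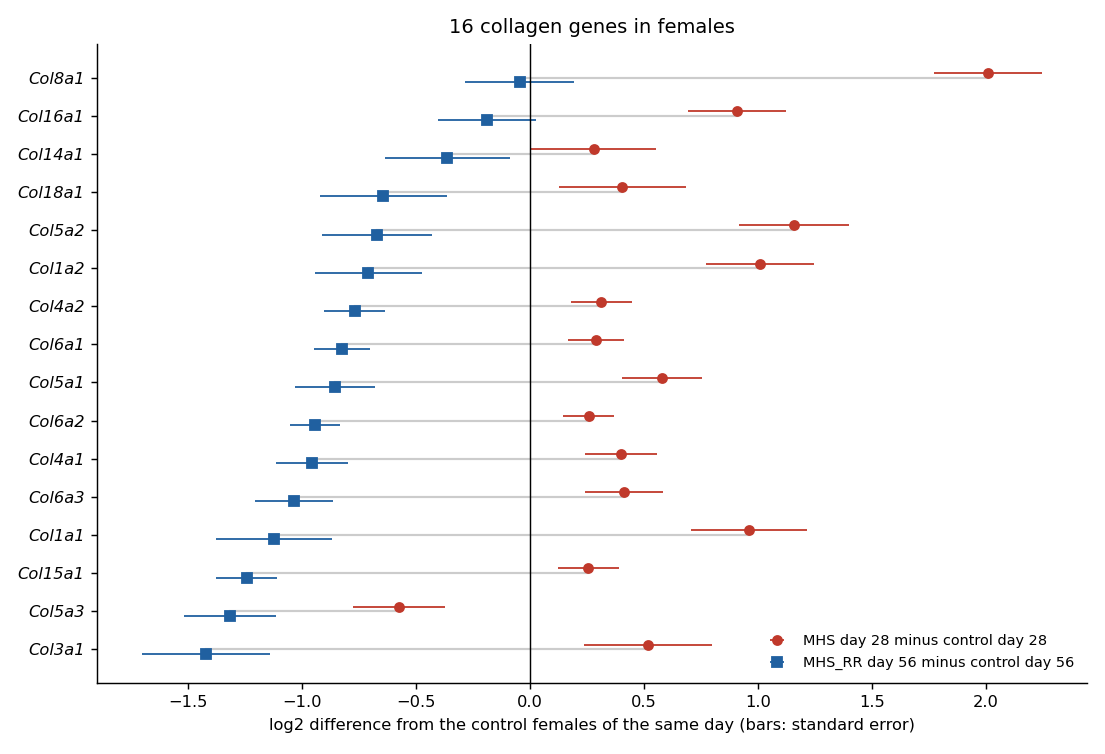
Log2 differences of 16 collagen genes from the control females of the same day, with standard errors, for MHS at day 28 (red circles) and MHS_RR at day 56 (blue squares). All 16 blue squares lie below 0, from -1.42 for Col3a1 to -0.05 for Col8a1, and each lies to the left of its red circle.

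Many genes for proteins that bind or organise collagen were lower as well. Of 17 tested matricellular genes 10 were lower and 0 higher (median -1.20, 6 lower without MHS replicate 2). Sparc, a collagen chaperone of the matrix, was at 543, 723 and 408 TPM in MHS and 196, 184 and 204 TPM in MHS_RR (-1.48 ± 0.14, adjusted p = 9.53e-06). The connective tissue growth factor gene Ctgf was at 86.0, 208 and 168 and at 60.6, 49.3 and 50.0 TPM (-1.43 ± 0.25, adjusted p = 0.00113). Thbs4 had 1 low MHS library and ranges that overlapped, 8.11, 68.9 and 64.5 TPM against 10.04, 9.10 and 3.06 TPM. It was called (-2.18 ± 0.59, adjusted p = 0.0201) but not without MHS replicate 2 (adjusted p = 0.126), MHS replicate 3 (0.104) or MHS_RR replicate 3 (0.114), nor in a fit to the 6 libraries alone (0.0756). Of 20 proteoglycan and elastic fibre genes 12 were lower and 0 higher (median -0.86). Mfap5 and Mfap4 encode microfibril-associated proteins, and Mfap5 was at 64.4, 140.2 and 78.2 and then at 27.6, 28.1 and 25.3 TPM (-1.69 ± 0.20, adjusted p = 2.86e-05), while Mfap4 differed by -1.70 ± 0.25. Fbln2, a fibulin, was at 51.2, 51.2 and 51.2 TPM in MHS_RR and at 80.2, 110.5 and 79.6 TPM in MHS (-0.79 ± 0.09, adjusted p = 4.49e-05), and the small proteoglycan gene Bgn differed by -1.16 ± 0.16.

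Of 23 genes for crosslinking enzymes, proteases and inhibitors 16 were lower and 0 higher (median -0.73, between 11 and 16 lower when a library was left out). Adamtsl2 encodes an ADAMTS-like protein that binds microfibrils. It was at 17.1, 21.0 and 18.6 TPM in MHS, at 4.36, 5.28 and 3.76 TPM in MHS_RR and at 7.31, 14.8 and 10.3 TPM in day 56 controls, so the MHS_RR libraries lay below both other groups. The difference from MHS was -1.87 ± 0.20 (adjusted p = 1.16e-05) and that from day 56 controls -1.07 ± 0.20 (adjusted p = 0.00557). The gelatinase gene Mmp2 differed from MHS by -1.42 ± 0.18 (adjusted p = 6.72e-05), the lysyl oxidase-like gene Loxl1 by -1.05 ± 0.13 (adjusted p = 6.72e-05) and the procollagen peptidase gene Adamts2 by -1.21 ± 0.16 (adjusted p = 0.000121). Timp1, an inhibitor of metalloproteinases, was at 12.7, 34.2 and 13.3 and at 6.59, 5.62 and 5.77 TPM (-1.45 ± 0.40, adjusted p = 0.0231). The call of Timp1 was lost without MHS replicate 2 (adjusted p = 0.154), MHS_RR replicate 2 (0.0809) or MHS_RR replicate 3 (0.0711).

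Transforming growth factor-beta (TGF-beta) and the activins drive matrix production. Of 21 genes of this signalling list 8 were lower and 0 higher (median -0.43), but 3 were lower without MHS replicate 2 and 5 without MHS_RR replicate 2 or MHS_RR replicate 3. Fstl3, a secreted activin inhibitor, was at 14.9, 21.1 and 22.8 TPM in MHS and at 5.27, 6.14 and 7.27 TPM in MHS_RR (-1.50 ± 0.24, adjusted p = 0.000483). Fstl1, a follistatin-like protein, differed by -1.41 ± 0.20 and the ligand gene Tgfb3 by -0.91 ± 0.14.

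Among 15 genes of the renin-angiotensin and endothelin systems 1 was higher and 2 were lower, in all 6 fits that left out a library. That was 20% of the list, against 11.9% of all genes. Ace, the enzyme that makes AngII, was at 41.4, 53.3 and 54.0 TPM in MHS and at 21.2, 20.9 and 18.4 TPM in MHS_RR (-1.25 ± 0.13, adjusted p = 9.53e-06). Edn3, an endothelin ligand, was at 3.85, 3.63 and 6.70 and at 1.30, 1.69 and 1.63 TPM (-1.14 ± 0.24, adjusted p = 0.00498). Agtr1a, the type 1 receptor of AngII, moved the other way, from 39.0, 34.7 and 38.5 TPM to 60.5, 52.0 and 59.4 TPM (0.60 ± 0.11, adjusted p = 0.0016). None of the groups overlapped. At day 56 controls had 52.2, 46.8 and 58.6 TPM of Agtr1a, which overlaps MHS_RR.

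Genes of cardiomyocyte hypertrophy and wall stress fell in part. Of 20 genes 11 were lower and 0 higher, with a median of -0.49, and between 8 and 12 were lower when a library was left out. Acta1, the skeletal alpha-actin of the fetal and stressed heart, was at 1815, 3262 and 2242 TPM in MHS and at 426, 867 and 594 TPM in MHS_RR (-1.97 ± 0.39, adjusted p = 0.00298). Ankrd1, a stretch-responsive repeat protein of the sarcomere, was at 1634, 3614 and 3139 and at 1143, 1417 and 1052 TPM (-1.15 ± 0.26, adjusted p = 0.00624). The MHS_RR libraries were lower in both without overlap, although Ankrd1 was not called without MHS replicate 2 (adjusted p = 0.0505). Nrap, which anchors actin in growing myofibrils, differed by -0.78 ± 0.12, the filamin gene Flnc by -0.71 ± 0.12 and the small heat shock gene Hspb7 by -0.47 ± 0.08. The 3 were called in all 17 alternatives.

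The promoters of Acta1 and Ankrd1 are shown because both genes are cardiomyocyte genes of this list that were called lower and hold CATTCC, the M-CAT element that TEAD factors bind in muscle genes. Capitals mark CATTCC, read on either strand, and in Acta1 also the CArG box of serum response factor, 73 bases before the annotated start. The sequences are RefSeq's for GRCm38.p6, matched by symbol, read 5′ to 3′ on the gene's strand from 250 bases before to 50 after the start. Acta1 lies on the minus strand at chr8:123894726-123895025 and Ankrd1 on the minus strand at chr19:36119795-36120094.
Acta1: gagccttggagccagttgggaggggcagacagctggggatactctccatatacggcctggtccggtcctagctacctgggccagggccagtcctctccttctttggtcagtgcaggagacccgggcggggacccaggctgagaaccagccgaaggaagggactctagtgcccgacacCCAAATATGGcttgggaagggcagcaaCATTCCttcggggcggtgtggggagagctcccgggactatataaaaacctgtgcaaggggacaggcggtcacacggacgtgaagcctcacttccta
Ankrd1: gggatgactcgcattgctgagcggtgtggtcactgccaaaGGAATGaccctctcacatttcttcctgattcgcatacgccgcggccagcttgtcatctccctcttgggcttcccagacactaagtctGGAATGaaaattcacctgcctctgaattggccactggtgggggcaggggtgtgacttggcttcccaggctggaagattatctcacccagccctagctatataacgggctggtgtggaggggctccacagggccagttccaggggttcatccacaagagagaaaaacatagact
CATTCC occurred in 7 of 25 promoters of the list, from 18 of its 20 genes, and in 14.7% of all 32851 promoters of the same length. The CArG box occurred in 5 of the 25 and in 1.63% of all promoters. CATTCC was in promoters of 6 genes, of which Myh7 and Nppb were not called. The CArG box was in those of 4 genes, of which Fhl2 and Lmcd1 were not called. A match is a description of the letters and no evidence of binding in these ventricles.

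Other classical markers of overload were less clear. Nppa was at 776, 3342 and 950.5 TPM in MHS and 447, 408 and 318 TPM in MHS_RR and was called (-1.80 ± 0.49, adjusted p = 0.0214), but not without MHS replicate 2 (adjusted p = 0.15), MHS_RR replicate 2 (0.0641) or MHS_RR replicate 3 (0.0827). Nppb, the B-type natriuretic peptide gene, was at 395, 889 and 674 and at 461, 409 and 431 TPM with overlapping groups (-0.51 ± 0.34, adjusted p = 0.366). The slow myosin heavy chain gene Myh7 was at 60.3, 259 and 361 TPM in MHS and at 153, 151 and 111 TPM in MHS_RR, also overlapping (-0.38 ± 0.51, adjusted p = 0.686). Control females had less Myh7 at day 56, 32.6, 66.0 and 37.4 TPM, which did not overlap MHS_RR, but the difference of 1.64 ± 0.51 did not pass the test (adjusted p = 0.0621). The adult heavy chain Myh6 gave -0.04 ± 0.10 (adjusted p = 0.854), but was called higher in an alternative in which its sign turned (limma adjusted p = 0.0106).

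The adult sarcomere list split into 2 higher and 4 lower of 19 genes (median -0.04), with 2 lower without MHS replicate 3 or MHS_RR replicate 2. The balance turned to 3 higher and 1 lower after median-of-ratios scaling and to 5 higher and 1 lower (median 0.17) after GC and length correction. The ventricular light chain gene Myl2, the most abundant of those named, was at 27210, 26430 and 28970 TPM in MHS and at 34400, 37860 and 38900 TPM in MHS_RR (0.43 ± 0.06, adjusted p = 0.000121). Troponin I (Tnni3) rose by 0.37 ± 0.07, whereas alpha-actinin 2 (Actn2) gave -0.33 ± 0.07. Under quantile normalization Myl2 was equal in all libraries and Tnni3 was not called (adjusted p = 0.395), and Actn2 was not called after median-of-ratios scaling (0.0619) or GC and length correction (0.0726). Of 27 calcium handling and channel genes 1 was higher and 1 lower. The higher was Gja1, connexin 43 of the gap junctions between cardiomyocytes, at 302, 287 and 241 and at 461, 385 and 435 TPM (0.63 ± 0.12, adjusted p = 0.00254).

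Many genes of the integrated stress response, in which ATF4 turns on genes of amino acid supply, were lower after withdrawal. Of 18 genes 10 were lower and 0 higher (median -0.51, 6 lower without MHS replicate 3). Mthfd2, a mitochondrial folate enzyme, was at 9.32, 7.25 and 9.61 TPM in MHS and at 2.32, 1.65 and 1.18 TPM in MHS_RR (-1.85 ± 0.23, adjusted p = 5.36e-05). Day 28 controls had 2.40, 1.90 and 2.23 TPM and day 56 controls 1.78, 3.21 and 2.43 TPM, so MHS libraries stood above all others. The amino acid transporter gene Slc7a5 differed by -0.54 ± 0.10 and the transcription factor gene Atf5 by -0.48 ± 0.10. Chac1, which degrades glutathione, was at 5.97, 6.13 and 9.27 and at 3.28, 2.71 and 3.71 TPM (-0.92 ± 0.20, adjusted p = 0.00535). Asns, asparagine synthetase, was at 4.19, 3.57 and 4.69 and at 1.56, 2.31 and 2.40 TPM (-0.74 ± 0.20, adjusted p = 0.019), but was not called under quantile normalization (0.0838) or without MHS replicate 3 (0.0737) or MHS_RR replicate 1 (0.0701). Trib3 gave overlapping groups (-0.14 ± 0.15, adjusted p = 0.577).

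The promoters of Chac1 and Asns are shown because both hold TGATGNAA, the core of the amino acid response element bound by ATF4 with C/EBP factors, marked in capitals on either strand. Chac1 lies on the plus strand at chr2:119350992-119351291 and Asns on the minus strand at chr6:7693160-7693459, from the same source and window.
Chac1: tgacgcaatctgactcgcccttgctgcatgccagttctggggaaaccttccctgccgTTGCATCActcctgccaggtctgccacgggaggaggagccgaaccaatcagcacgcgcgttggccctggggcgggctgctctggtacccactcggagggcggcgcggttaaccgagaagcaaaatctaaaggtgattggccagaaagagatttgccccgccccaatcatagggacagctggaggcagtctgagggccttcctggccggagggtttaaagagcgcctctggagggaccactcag
Asns: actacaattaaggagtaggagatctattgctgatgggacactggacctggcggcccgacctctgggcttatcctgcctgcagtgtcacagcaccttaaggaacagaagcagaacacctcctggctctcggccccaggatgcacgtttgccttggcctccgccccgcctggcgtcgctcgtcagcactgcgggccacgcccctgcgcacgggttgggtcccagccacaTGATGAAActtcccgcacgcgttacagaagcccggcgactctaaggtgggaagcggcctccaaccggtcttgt
TGATGNAA occurred in 5 of 20 promoters of the list, from 17 of its 18 genes, and in 3.97% of all promoters. Trib3, which was not called, was among the genes with a match.

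Of 18 endoplasmic reticulum chaperone and stress genes 2 were higher and 1 lower (median 0.16), and 5 were higher after median-of-ratios scaling or GC and length correction and 4 under quantile normalization. Hspa5, the main chaperone of that compartment, was at 455, 413 and 434 TPM in MHS and at 587, 581 and 783 TPM in MHS_RR (0.57 ± 0.14, adjusted p = 0.0103), and its partner gene Sdf2l1 gave 0.93 ± 0.22. Neither was called without MHS_RR replicate 3, the highest library for both (adjusted p = 0.0746 and 0.0619), and Sdf2l1 was not called without MHS replicate 3 (0.0634). Of 15 cytosolic heat shock genes 1 was lower and 0 higher.

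Glucocorticoid-responsive genes fell in 6 of 15 cases with 0 higher (median -0.59), and in 2 without MHS replicate 3 or MHS_RR replicate 2. Fkbp5, an immunophilin that restrains the glucocorticoid receptor, was at 14.8, 15.2 and 17.8 TPM in MHS and at 8.85, 6.35 and 7.22 TPM in MHS_RR (-1.01 ± 0.11, adjusted p = 2.75e-05) and was called in all 17 alternatives. Tsc22d3, the glucocorticoid-induced leucine zipper, differed by -0.59 ± 0.13 (adjusted p = 0.00568). The metallothionein gene Mt2 was at 169.6, 177 and 175 and at 82.0, 82.1 and 83.3 TPM. The groups were far apart beside their spread, but the call was close to the threshold (-1.07 ± 0.33, adjusted p = 0.0425) and was lost in all of the 6 fits that left out a library (adjusted p up to 0.118). The standard error draws on the spread of all 8 groups, not only of these 6 libraries. In the other 11 alternatives the limma adjusted p of Mt2 lay between 9.38e-05 and 0.0827. Of 24 metallothionein and antioxidant genes 6 were lower and 0 higher, with 0 lower without MHS_RR replicate 2, 1 without MHS replicate 2, 2 without MHS_RR replicate 1 and 3 without MHS_RR replicate 3. This list had 1 higher and 0 lower after median-of-ratios scaling, 1 lower under quantile normalization, and 2 higher and 3 lower after GC and length correction. Of 18 immediate early genes 7 were lower and 0 higher (median -0.66), with 2 lower without MHS_RR replicate 3, 3 without MHS replicate 2 and 4 without MHS_RR replicate 2. Egr3 was at 2.10, 2.86 and 7.58 and at 1.13, 0.314 and 0.747 TPM (-1.46 ± 0.33, adjusted p = 0.00648), and Myc, the growth regulator, gave -1.09 ± 0.24 (adjusted p = 0.00518).

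Clock genes differed little as a list, with 2 of 22 higher and 0 lower. Arntl, which encodes the activator BMAL1, was at 1.09, 1.83 and 0.946 TPM in MHS, at 4.56, 2.81 and 5.04 TPM in MHS_RR and at 7.46, 15.3 and 12.4 TPM in day 56 controls. The differences were 1.16 ± 0.34 from MHS (adjusted p = 0.0301) and -1.28 ± 0.34 from day 56 controls (adjusted p = 0.0319). Per2, a repressor of the loop, was at 17.8, 17.3 and 19.6 and at 10.7, 10.3 and 5.59 TPM without overlap but was not called (-1.01 ± 0.37, adjusted p = 0.0781). Arntl and the repressor gene Nr1d1 were each not called without MHS replicate 3 (adjusted p = 0.1 and 0.0711), MHS_RR replicate 1 (0.07 and 0.0622) or MHS_RR replicate 3 (0.117 and 0.0784), and Arntl was not without MHS replicate 1 (0.0738) nor Nr1d1 without MHS replicate 2 (0.0729). With all libraries Nr1d1 differed by 0.75 ± 0.20 (adjusted p = 0.021), and the time of day of collection is not in the labels. Cry1 (-0.42 ± 0.15, adjusted p = 0.0784) and Dbp (0.15 ± 0.46, adjusted p = 0.883) did not pass the test.

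Genes of energy metabolism changed by small amounts and in different directions. Of 41 nuclear-encoded respiratory chain genes 9 were higher and 0 lower (median 0.13), among them Ndufa5 of complex I, at 1511, 1359 and 1437 and at 1658, 1797 and 1802 TPM (0.29 ± 0.06, adjusted p = 0.0032). The count was 2 without MHS replicate 2 or MHS_RR replicate 2 and 4 without MHS replicate 3. Of 17 genes of branched-chain amino acid breakdown 5 were higher and 0 lower (median 0.16), or 2 without MHS replicate 3 or MHS_RR replicate 2 and 3 without MHS replicate 2 or MHS_RR replicate 3, with both subunits of the branched-chain keto acid dehydrogenase, Bckdhb at 0.37 ± 0.07 and Bckdha at 0.32 ± 0.07. Of 15 citric acid cycle genes 3 were higher, led by Idh2 (0.36 ± 0.07, adjusted p = 0.00187), and 0 lower, with 1 higher without MHS replicate 2 and 5 without MHS replicate 1. Glycolysis split into 4 higher and 2 lower of 27 genes, with 2 higher without MHS replicate 2, MHS replicate 3, MHS_RR replicate 2 or MHS_RR replicate 3. After median-of-ratios scaling glycolysis had 9 higher and 1 lower, the branched-chain list 10 higher and the citric acid cycle 5 higher. After GC and length correction glycolysis had 10 higher and 1 lower, the branched-chain list 9, the citric acid cycle 6 and the respiratory chain 15 higher, whereas quantile normalization gave glycolysis 2 higher and 1 lower and the branched-chain list 9 higher. Eno3, muscle enolase, was at 1416, 1255 and 1193 and at 1862, 1822 and 1600 TPM (0.45 ± 0.07, adjusted p = 0.000436), and Ldhb, the heart lactate dehydrogenase, gave 0.40 ± 0.05, whereas the phosphofructokinase gene Pfkp gave -0.59 ± 0.12. Of 32 genes of fatty acid uptake and oxidation 7 were lower and 0 higher (median -0.13, with 4 lower without MHS replicate 1 or MHS_RR replicate 2), such as Acadl (-0.26 ± 0.04) and Decr1 (-0.31 ± 0.05). Under median-of-ratios scaling this list had 1 higher and 0 lower, and neither Acadl (adjusted p = 0.109) nor Decr1 (0.083) was called. Pdk4, which closes pyruvate dehydrogenase, was at 373, 390.1 and 405 TPM in MHS and scattered at 150.1, 67.9 and 356 TPM in MHS_RR (-1.33 ± 0.53, adjusted p = 0.108).

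The named genes that rose were of mixed function. Scgb1c1, a secretoglobin, was at 25.3, 23.9 and 15.1 TPM in MHS and at 82.4, 92.4 and 62.6 TPM in MHS_RR (1.85 ± 0.21, adjusted p = 2.64e-05). Here MHS was the lowest of the female groups, since day 28 controls had 80.2, 47.8 and 58.0 TPM and day 56 controls 62.8, 63.2 and 67.7 TPM of Scgb1c1. Gnmt, a methyltransferase of glycine, rose by 1.35 ± 0.20, and Slc41a3, of a magnesium transporter family, by 1.29 ± 0.18 (adjusted p = 0.000191). Penk, the precursor of enkephalins, was at 2.65, 2.42 and 3.32 and at 7.48, 6.20 and 6.40 TPM (1.02 ± 0.20, adjusted p = 0.00235). Gnb3, a G protein beta subunit, rose by 1.07 ± 0.20, and Colq, the collagen-like anchor of acetylcholinesterase, by 1.06 ± 0.19. Lrrc4b, Lingo3, Ripor2 and Tbc1d10c rose by between 0.83 and 0.98. Doc2g, of a family of calcium-binding C2 domain proteins, was at 218, 186 and 174 TPM in MHS and at 319.5, 362 and 341 TPM in MHS_RR (0.82 ± 0.08, adjusted p = 9.53e-06). The rule that named these genes required no overlap between groups and took first those called without each of the 6 libraries. They were also called in the other 11 alternatives, which the rule did not use.

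Markers of other cells changed as well. Of 15 fibroblast markers 6 were lower and 0 higher (median -0.29), and their summed level was between 2854 and 3071 TPM in MHS and between 2045 and 2562 TPM in MHS_RR. Col1a1 and Mfap5 are among the 6, beside Pi16 (-0.97 ± 0.14), a marker of resting fibroblasts, and the small proteoglycan gene Lum (-0.82 ± 0.14). Of 25 macrophage markers 9 were lower and 0 higher (median -0.49), but 2 were lower after median-of-ratios scaling and 3 lower with 1 higher under quantile normalization. The summed level was from 740.8 to 1137 TPM in MHS and from 620.2 to 703.9 TPM in MHS_RR. Without MHS replicate 2 the count was 0, without MHS_RR replicate 3 it was 1 and without MHS_RR replicate 2 it was 5. The complement gene C1qc was at 125, 144 and 93.2 and at 84.9, 81.7 and 71.5 TPM (-0.58 ± 0.14, adjusted p = 0.00826) and was not called without MHS replicate 2 (adjusted p = 0.066). Of 16 endothelial markers 6 were lower and 0 higher (median -0.17, sums from 3074 to 3381 TPM in MHS and from 2732 to 3029 TPM in MHS_RR), with 3 lower without MHS_RR replicate 2. After median-of-ratios scaling 4 were lower (median -0.06 against 0.00 over all genes). GC and length correction also left 4 lower (median -0.02 against 0.02), as did quantile normalization (-0.09 against 0.02). Ly6c1, a surface protein of endothelium, differed by -0.60 ± 0.10, and the TGF-beta co-receptor gene Eng, at 144, 126 and 131 and at 103, 100.9 and 87.6 TPM, differed by -0.45 ± 0.08 (adjusted p = 0.00151). Ventricular cardiomyocyte markers rose in 3 of 8 cases, and their sum was between 84650 and 91270 TPM in MHS and between 98850 and 106200 TPM in MHS_RR. A large part of this rise was Myl2 alone, at 26430 to 28970 TPM in MHS and 34400 to 38900 TPM in MHS_RR. Myh6 (-0.04), Actc1 (-0.09) and Ryr2 (-0.38) had estimates below 0 and were not called. The list had 4 higher after median-of-ratios scaling and 5 after GC and length correction, but 1 under quantile normalization. The part of these sums in the matrix and stress results was not tested.

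Of 13 mural and smooth muscle markers 2 were lower, of 6 atrial markers 1 (Nppa), of 4 adipocyte markers 1, and the single tested mesothelial marker was lower, all with 0 higher. The sum of the 6 listed mesothelial markers was from 3.74 to 5.66 TPM in MHS. In MHS_RR it was at 3.24, 3.88 and 12.6 TPM, the highest in replicate 3. For the mural list the share called was 15.4%, against 11.9% of all genes. Lymphocyte, granulocyte and mast cell, skeletal muscle, erythroid and Schwann cell markers had 0 members called. Defining lymphocyte markers (Cd3e, Cd8a and Ms4a1 among 9 of 16) and neutrophil markers (Csf3r and Cxcr2 among 5 of 13) were below 1 TPM in all 6 libraries. Sums for atrial markers were from 818.4 to 3379 TPM in MHS and from 351.4 to 510.1 TPM in MHS_RR. Nppa, also a gene of ventricular overload with levels given above, made up most of each sum. Myl7 was at 1.01, 0.556 and 124.7 TPM in MHS and at 11.4, 12.4 and 0.955 TPM in MHS_RR.

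Against 11.9% of all genes, 17.4% of the interferon-stimulated and 14.3% of the antigen presentation genes were called. The shares were 21.4% for the acute phase and complement list and 20% for the FoxO list. Of 23 interferon-stimulated genes 4 were lower, or 7 without MHS_RR replicate 1, among them Rsad2 at 20.5, 18.6 and 24.2 and at 11.7, 10.4 and 10.8 TPM (-0.88 ± 0.20, adjusted p = 0.00603) and Zbp1 (-0.86 ± 0.18). The acute phase and complement list had 3 of 14 lower (0 without MHS replicate 2, 1 without MHS_RR replicate 3 and 5 without MHS_RR replicate 1), the antigen presentation list 2 of 14 lower (0 without MHS replicate 2 or MHS_RR replicate 2, 4 without MHS replicate 3 and 5 without MHS_RR replicate 1), and the FoxO and ubiquitin ligase list 3 of 15 lower (0 without MHS replicate 3 or MHS_RR replicate 2 and 1 without MHS_RR replicate 3). Serpina3n (-0.82 ± 0.31, adjusted p = 0.0896) and Lcn2 (-0.58 ± 0.26, adjusted p = 0.161), acute phase genes, were not called. Of 13 proliferation genes 4 were lower, or 2 without MHS replicate 2 or MHS_RR replicate 3, with Top2a at 2.15, 2.02 and 1.24 and at 0.365, 0.333 and 0.262 TPM (-1.07 ± 0.24, adjusted p = 0.00579). Tubulins split, with the muscle-rich isotype genes Tuba4a (0.61 ± 0.13) and Tuba8 (0.60 ± 0.15) and Tubb4b (0.43 ± 0.10) higher, and Tuba1a (-0.41 ± 0.08) among 2 lower of 13. Tuba8 and Tubb4b were not called without MHS replicate 2 (adjusted p = 0.0888 and 0.0788) or MHS_RR replicate 3 (0.0766 and 0.0552). Of 40 cytosolic ribosomal protein genes 1 was higher and of 27 proteasome genes 1 lower. After GC and length correction 8 ribosomal protein genes were higher, and 2 mural markers were higher with 0 lower. Median-of-ratios scaling left 5 lower genes in the TGF-beta list, 3 in the glucocorticoid list, 1 in the FoxO list, 1 in the acute phase list and 0 in the antigen presentation list, and quantile normalization left 4 immediate early, 5 TGF-beta and 2 proliferation genes lower. Calls in lists with 1 or 2 of them fell to 0 in at least 1 of the 6 fits that left out a library, except for Gja1, the lower glycolysis genes, the higher sarcomere genes, the tubulins, the renin-angiotensin list and the sex-linked genes. Of 5 tested sex-linked genes 2 were lower, Xist (-0.81 ± 0.18) and Kdm5c (-0.44 ± 0.12), and MHS_RR replicate 3 had the lowest value of both. After GC and length correction neither was called (adjusted p = 0.133 and 0.116), and Kdm5c was also not called after median-of-ratios scaling (0.0502), under quantile normalization (0.102), in a fit to the 6 libraries alone (0.0621), or without MHS replicate 2 (0.0739), MHS replicate 3 (0.0591), MHS_RR replicate 2 (0.0894) or MHS_RR replicate 3 (0.133).

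**Figure D4:**
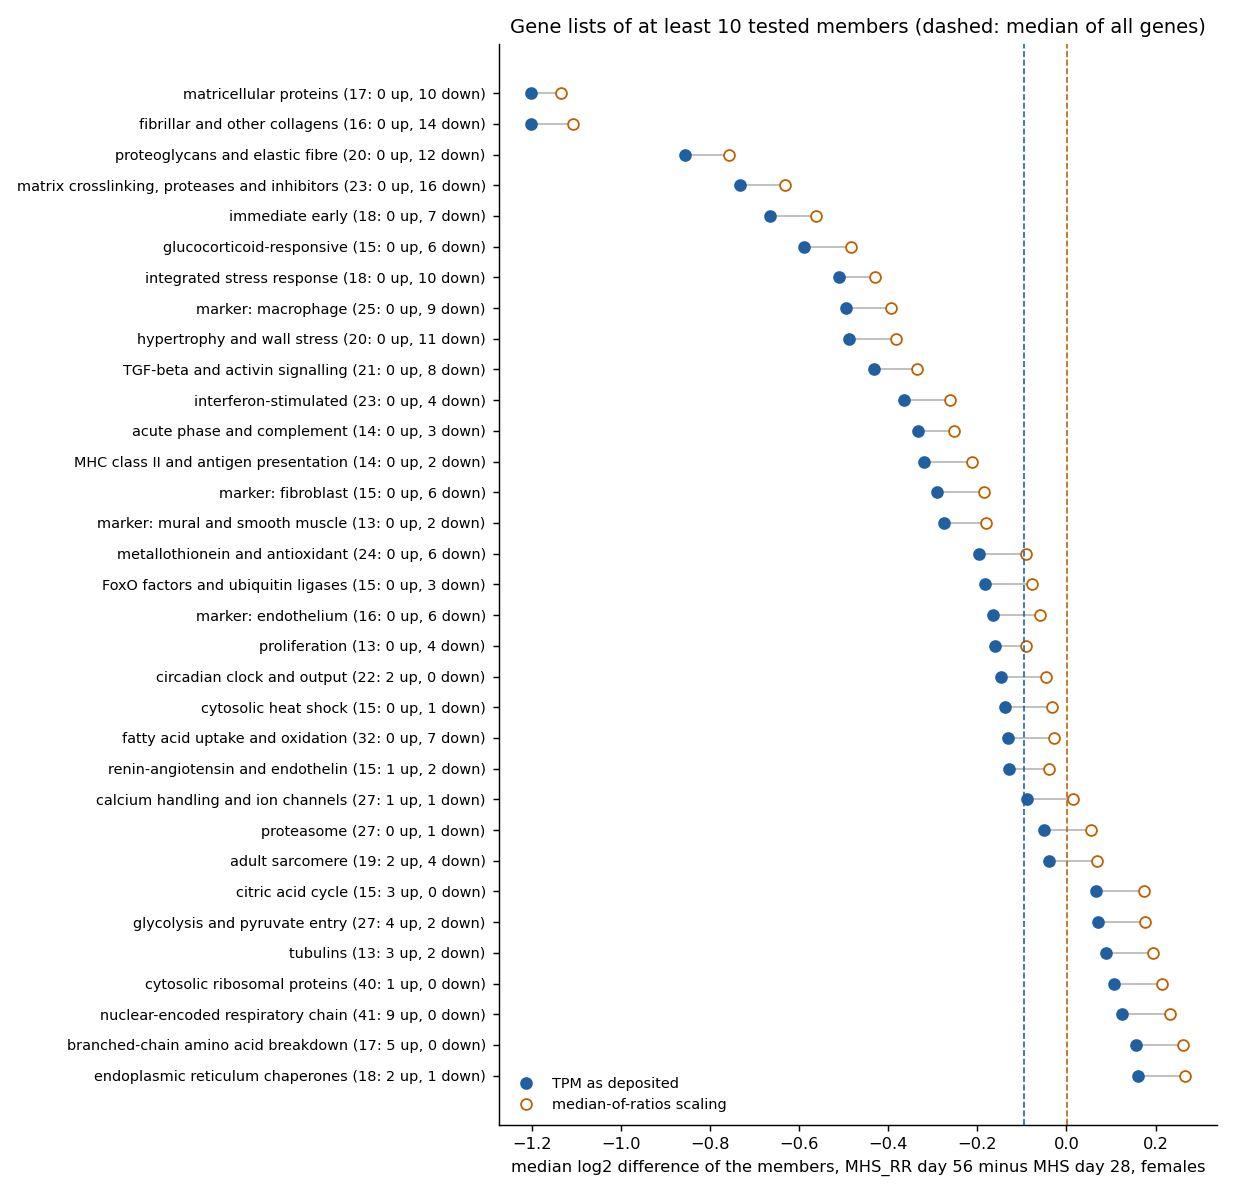
Median log2 difference of each gene list with at least 10 tested members, with TPM as deposited (filled circles) and after median-of-ratios scaling (open circles), the dashed lines being the medians of all genes (-0.09 and 0.00). Matricellular genes and collagens lie lowest at -1.20, and respiratory chain, branched-chain amino acid and endoplasmic reticulum chaperone genes lie above the median of all genes under both scalings.

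The change in females was set against that in males, whose MHS_RR and MHS libraries are separate samples. In males 2540 genes (20.3%) were called, 2105 lower (16.9%) and 435 higher (3.49%). The female change minus the male change was called for 0 genes (0%) of 12482 by limma, with 324 at an unadjusted p under 0.05 and 0 called under every alternative. Of the genes lower in females 978, or 77.9%, were also called lower in males, which is 46.5% of those lower in males. Among higher genes 161 were shared, 70.3% of the female and 37.0% of the male genes, and 0 genes were called in opposite directions. All 87 genes at least 2-fold lower in females were lower in the male estimate too, with medians of -1.26 in females and -1.17 in males. Postn gave -2.50 ± 0.47 in females and -1.95 in males, Acta1 -1.97 ± 0.39 and -1.85, and Scgb1c1 1.85 ± 0.21 and 1.71. For Nppa the values were -1.80 ± 0.49 and -0.82 and the difference between sexes was -0.98 ± 0.69 (adjusted p = 0.999). A missed threshold does not show that the sexes responded alike.

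**Figure D5:**
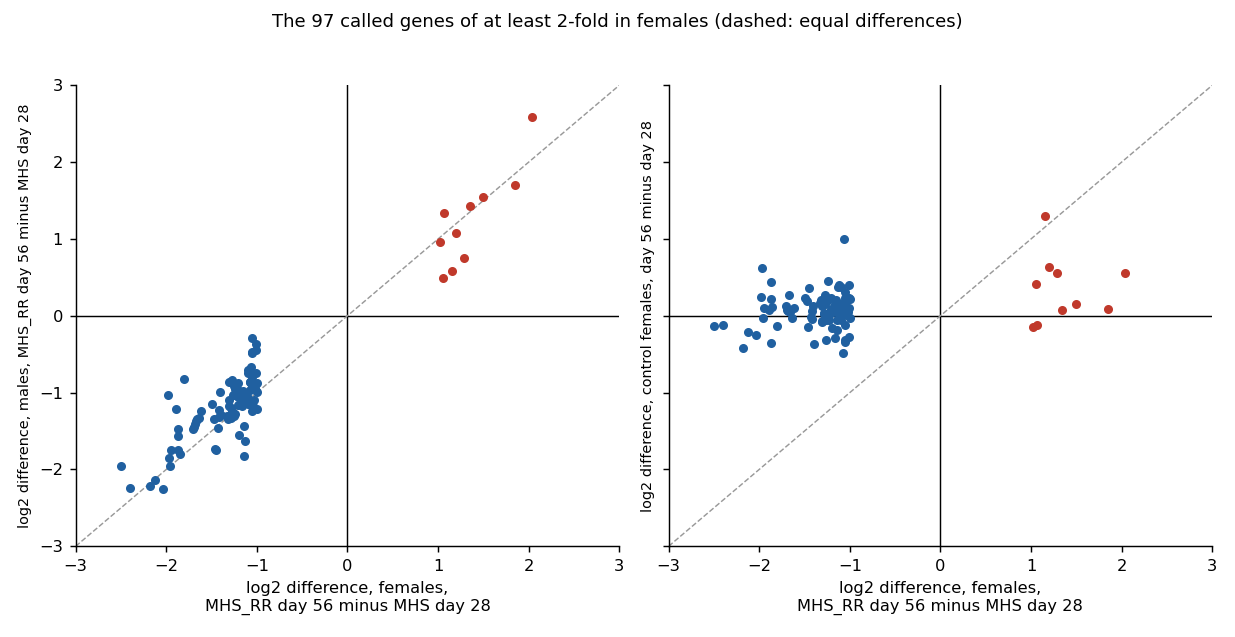
The 97 genes called with at least a 2-fold difference in females, plotted against the male change (left) and against the change of control females from day 28 to day 56 (right), all as log2 differences. The male values have the sign of the female values in all 97 genes, while the control values of the 87 lower genes scatter around a median of 0.07.

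Control females gave the difference between the days without treatment. Day 28 control replicate 2 stood apart, with 625 TPM of the atrial light chain Myl7 against 6.28 and 2.74 TPM in replicates 1 and 3. Its summed atrial markers were at 1882 TPM, against 310.3 and 357.3 TPM. Between day 28 and day 56 they had 0 genes called (0%), with 460 at an unadjusted p under 0.05. The 87 genes that were at least 2-fold lower had a median of 0.07 in controls over the same days, and 30 of them were lower there in the estimate. The change of treated females minus that of controls was called for 350 genes (2.80%), 296 lower (2.37%) and 54 higher (0.433%). After GC and length correction 199 were lower and 157 higher, and after median-of-ratios scaling 155 and 62. The count was 301 and 171 without day 28 control replicates 2 and 3, and 163 and 218 without day 56 control replicates 2 and 3. It was 167 without MHS replicate 2, and 188 and 223 without MHS_RR replicates 2 and 3. Collagen genes made 12 of these lower genes, and the count was between 12 and 14 in every alternative, with Col3a1 called in 22 of 23 of them. Several other lists had fewer calls here than between MHS_RR and MHS. Lower genes numbered 10 in the proteoglycan, 8 in the crosslinking and 6 in the hypertrophy list. Without day 56 control replicate 2 these were 5, 6 and 2. The integrated stress list had 4, the matricellular and TGF-beta lists 3 each, the immediate early list 1 and the macrophage list 0. All of these had 0 higher genes, and the respiratory chain list had 1 higher and 0 lower. The genes of lowest adjusted p included Ace (-1.48 ± 0.18), Sparc (-1.67 ± 0.20), Col15a1 (-1.50 ± 0.19) and Adamtsl2 (-2.31 ± 0.28) among the lower and Doc2g (0.92 ± 0.11), Scgb1c1 (1.76 ± 0.30) and Ldhb (0.38 ± 0.07) among the higher. Hr, the hairless corepressor, was at 16.2, 16.1 and 13.9 TPM in day 28 controls, 15.9, 17.9 and 16.1 TPM in MHS, 18.0, 19.5 and 18.5 TPM in day 56 controls and 8.66, 7.58 and 9.54 TPM in MHS_RR. Its level in MHS overlapped the day 28 controls, and only MHS_RR stood apart among the female groups, with a difference from day 56 controls of -1.04 ± 0.10 (adjusted p = 3.02e-05). For the clock gene Arntl control females were at 5.92, 2.41 and 4.32 TPM at day 28 and at 7.46, 15.3 and 12.4 TPM at day 56, and the difference of changes was -0.14 ± 0.48 (adjusted p = 0.928).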

How the data were processed

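RNA sequencing was from total RNA of the LV free wall, extracted with TRIzol and prepared with a stranded mRNA kit. The authors deposited gene-level TPM for all 24 libraries, with STAR, Salmon and mouse build mm9 named in the submitters' processing notes without versions. TPM are shares of a library, so a large gain in a few genes lowers the others. Groups came from sample titles. Genes reaching 1 TPM in 3 or more of the 6 libraries were kept, and limma 3.58.1 (R 4.3.3) fitted log2(TPM + 1) on the means of all 8 groups, 24 libraries with 16 residual degrees of freedom, with a mean-variance trend and Benjamini-Hochberg adjustment over 12482 genes. Named genes were the 12 lowest and 12 highest called genes with non-overlapping groups and a mean of at least 5 TPM in the higher group, taking first those called without each of the 6 libraries, the 5 genes of lowest adjusted p per direction in the comparison with control days, a fixed set of classical markers, and the 4 genes of lowest p in each list. Predicted genes were counted, not named, and some genes that the rule names are not reported here. Gene lists and members were chosen with earlier results of these data known. The comparison with day 56 controls was chosen after seeing the data. Other pseudocounts, filters, scalings, a correction for GC content and length, array weights, a replicate block, smaller fits and fits without single libraries were tried. Promoters came from RefSeq tables for GRCm38.p6, and no coordinate was converted. The procedure was tested on simulated data.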

Additional observations from a re-analysis of the deposited data

Results flagged for a closer look

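The change of treated females differed from the change of control females over the same days for 350 genes, by limma on the difference of the 2 changes (adjusted p under 0.05). Among the 5 genes of lowest adjusted p that were higher, this difference was 0.92 for Doc2g, 1.76 for Scgb1c1, 0.47 for Myl2 and 0.38 for Ldhb on the log2 scale, and 0.73 for a predicted gene. Among those that were lower it was -1.67 for Sparc, -2.31 for Adamtsl2, -1.48 for Ace, -1.50 for Col15a1 and -1.15 for Hr.

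Y-linked genes, which the comparisons did not use, stood at 26.1% of the male mean in MHS_RR replicate 3, while the other 11 female libraries had at most 1.74%. Without this library 797 genes were called between MHS_RR and MHS, and the collagen genes lower numbered between 13 and 15 in all 6 fits that left out a library.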

How the results depend on the processing

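The count of genes called between MHS_RR and MHS in females was 1484 and lay between 686 and 1581 over the fits without single libraries. It was 2420 with array weights. Grouping by the time and treatment tags, which makes the day 56 controls the stressed group, gave 662. Replicate numbers were given in the labels of all groups. The deviations of same-numbered MHS and MHS_RR libraries had low correlations (-0.019, 0.139 and 0.058). The 0.139 of replicate 2 was the highest of all MHS and MHS_RR pairs. MHS replicate 1 correlated best with MHS_RR replicate 2 (0.04) and MHS replicate 3 with MHS_RR replicate 1 (0.101). The numbers were not taken as pairs. With the replicate block 1728 genes were called. The difference between the sexes had between 0 and 0 genes called without single libraries. The difference from control days had 350, between 163 and 378 without single libraries, 217 after median-of-ratios scaling, 227 after quantile normalization and 1193 with array weights. The comparison with day 56 controls had 662, between 90 and 933 without single libraries, 292 after median-of-ratios scaling, 254 after quantile normalization, 1899 with array weights, 299 after GC and length correction, 354 with the replicate block and that correction, and 338 in a fit to only the 6 libraries. The cause of these shifts was not tested. Small differences changed sign. Myl2 was 0.00 under quantile normalization, also against control days, because it was the most abundant gene in these libraries. Myh6 was 0.068 after median-of-ratios scaling and 0.19 after GC and length correction with or without the replicate block, and without single libraries it lay between -0.092 and 0.044, at 0.02 without MHS replicate 3. The lowest adjusted p of Myh6 over the alternatives, 0.0106 by limma, came with a reversed sign, so there Myh6 was called higher. Without single libraries Myh7 lay between -1.16 and 0.12, the highest without MHS replicate 3, and Dbp between -1e-04 without MHS_RR replicate 2 and 0.36. TPM carry no depth, so counting error could not be given.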
